A study of Mus musculus with 27 samples.

Results

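In the ventral spinal cord, graded Sonic hedgehog signalling divides neural progenitors into domains that are each marked by a combination of transcription factors. Nkx2.2 marks the p3 domain, which lies between the floor plate and the motor neuron progenitor (pMN) domain marked by Olig2, and its boundary with the pMN domain is set by mutual repression between factors on either side. The homeodomain protein Nkx2.2 also carries a short conserved stretch called the specific domain (SD), and the same protein is a regulator of endocrine cell fates in the pancreas.

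The genes described here are 8 transcription factors of progenitor domains: Pax6, Olig1, Olig2, Irx3, Dbx1, Dbx2, Nkx6-2 and Foxa2. They were chosen by name with earlier results of these data known, so their counts beside the shares of all genes are a description. All 8 were found among the 39017 rows of the progenitor count table, and all 8 passed the filter on low counts. The series holds 27 mouse samples in 11 groups. The progenitors were made from embryonic stem cells and collected at day 4 of motor neuron differentiation. The pMN group is the iNkx2.2 line left without doxycycline (n = 3). The iNkx2.2 group is the same line treated with doxycycline (1 µg/ml, about 16 hours) to switch on FLAG-tagged wildtype Nkx2.2 (n = 3), and the iSDmut group is another line given the same treatment to switch on FLAG-tagged Nkx2.2 with a mutated SD (n = 2). No untreated library of the iSDmut line was used here, and doxycycline was absent from every control, so the transgene cannot be told apart from the line (iSDmut against pMN and iSDmut against iNkx2.2) or from doxycycline itself (both comparisons with pMN). The other RNA libraries are whole E15.5 (embryonic day) pancreas from control (n = 3) and Nkx2.2 SDmut (n = 4) embryos, islets at 8 weeks from controls (n = 2) and mice with a beta-cell-specific SD mutation (betaSDmut, n = 3), and islets at 4 weeks from controls (n = 2) and libraries labelled betaKO (n = 2). The molecule recorded for the 4-week islets is genomic DNA, whereas what was deposited for them is counts of RNA reads over genes. The labels do not name the Cre driver, and they do not say whether progenitor replicates were separate cultures, so p-values measure only the spread between these samples. The 2 ChIP-seq replicates of Nkx2.2 came from MIN6 cells, a mouse beta cell line.

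Total counts were 17757991 to 46840701 per progenitor library, 38447596 to 41840638 per embryonic pancreas library and 12398041 to 32385406 per islet library. Levels below are CPM, read counts relative to library size after TMM scaling, unless they are named as FPKM, the deposited length-scaled unit used to compare genes with each other. Nkx2-2, whose reads come from the endogenous gene and the transgene together, was at 5.40 to 11.6 CPM in pMN, 343 to 378 CPM in iNkx2.2 and 245 to 248 CPM in iSDmut. It was 0.53 lower on the log2 scale in iSDmut than in iNkx2.2 (SE 0.22, edgeR adjusted p = 0.37), and the groups did not overlap. The part of this dose difference in the results below was not tested. In bulk RNA, fewer cells of a type and less RNA per cell cannot be told apart.

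In untreated progenitors Olig2 had the highest deposited FPKM of the 8 genes, 96.8 ± 19.6 (SD, n = 3). Pax6 followed at 33.0 ± 9.57 FPKM and Foxa2 at 27.4 ± 2.43 FPKM, and the libraries of these neighbours overlapped. Olig1 was at 19.1 ± 7.77 FPKM and Nkx6-2 at 17.2 ± 3.27 FPKM, which also overlapped. Irx3 was at 10.2 ± 3.19 FPKM and Dbx1 at 4.14 ± 3.86 FPKM, again with overlapping libraries, and Dbx2 was lowest at 0.398 ± 0.185 FPKM. Pan-neural progenitor markers, which are not particular to the pMN domain, were present: Sox1, Sox2, Sox3, Hes5, Nes and Fabp7 summed to 790 to 821 CPM in pMN. Floor plate, endoderm and neuron markers were present too, at 392 to 544, 57.6 to 111 and 397 to 780 CPM.

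**Figure D1:**
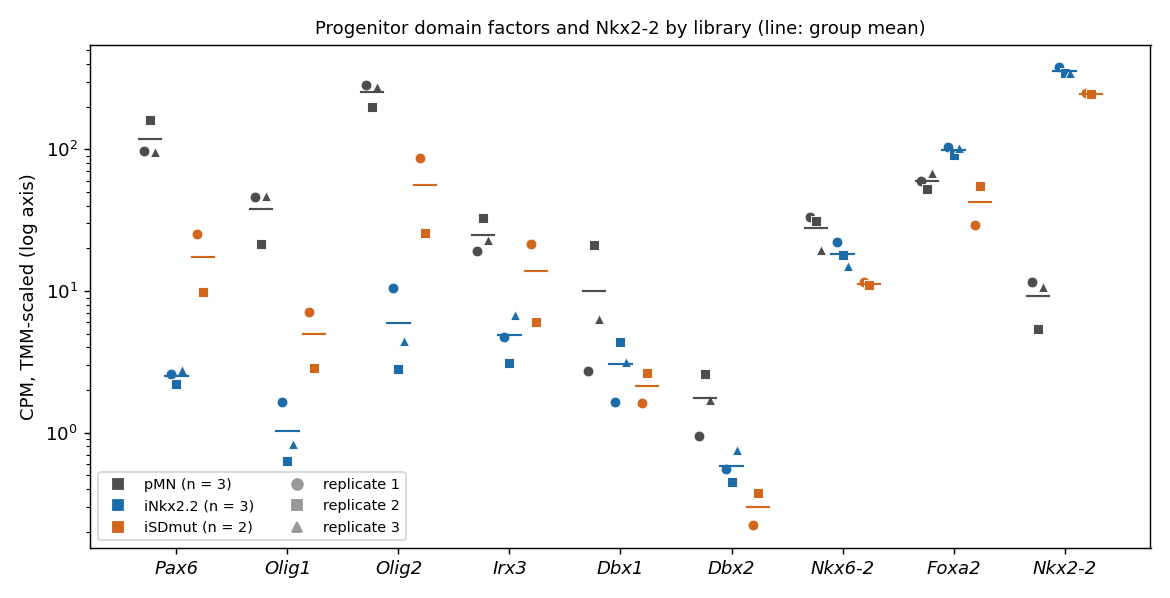
Level of each of the 8 factors and of Nkx2-2 in every progenitor library, in TMM-scaled CPM on a log axis; marker shape gives the replicate number and the line the group mean. Pax6, Olig1 and Olig2 sit lowest in iNkx2.2 and between the other groups in iSDmut, while Foxa2 sits highest in iNkx2.2.

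Induction of wildtype Nkx2.2 was accompanied by a near loss of Pax6 and of both Olig genes. Pax6, Olig1, Olig2, Irx3 and Dbx2 were called lower, 5 of the 8 factors, and none was called higher. Foxa2 was higher by 0.72 on the log2 scale and narrowly missed the threshold (edgeR adjusted p = 0.0523). Among all 15653 genes tested, 4.78% were called lower and 4.71% higher (edgeR quasi-likelihood test, Benjamini-Hochberg adjusted p under 0.05). In the fit blocked by replicate number, 4629 genes and 6 of the 8 factors were called, against 1486 genes and 5 factors without the block. With the block, Dbx1 and Nkx6-2 were gained as lower and Irx3 was lost. The other values of this paragraph leave the pairing of libraries out. The median log2 fold change was -2.04 over the 8 factors and -0.01 over all genes. The libraries of the groups did not overlap for 6 of the 8 factors, against 31.4% of all genes. Of these factors, only Foxa2 was higher in iNkx2.2.

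Pax6, a paired-box and homeodomain factor of the pMN and more dorsal domains, was at 97.8, 161 and 95.1 CPM in pMN and at 2.61, 2.19 and 2.75 CPM in iNkx2.2. Every induced library was far below every untreated one. The log2 fold change was -5.54 (SE 0.38, edgeR adjusted p = 0.000102), a 46.5-fold lower level. Olig2, the bHLH factor that defines the pMN domain, was at 284, 200.2 and 277 CPM in pMN and at 10.5, 2.82 and 4.41 CPM in iNkx2.2. Its log2 fold change was -5.35 (SE 0.57, edgeR adjusted p = 0.0011). Olig1, its neighbour on chromosome 16 and a related bHLH factor, went from 45.9, 21.6 and 46.8 CPM to 1.65, 0.627 and 0.830 CPM. Its log2 fold change was -5.10 (SE 0.48, edgeR adjusted p = 0.000441). These 3 genes were left at 2.13%, 2.33% and 2.72% of their pMN means (Pax6, Olig2 and Olig1).

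The factors of more dorsal domains were left at higher shares. Irx3, an Iroquois homeodomain factor found dorsal to the pMN domain, was at 19.1, 32.5 and 22.9 CPM in pMN and at 4.74, 3.09 and 6.75 CPM in iNkx2.2. It fell by 2.35 on the log2 scale (SE 0.45, edgeR adjusted p = 0.0137). In a fit blocked by replicate number, by which these groups were taken to be paired, the edgeR adjusted p was 0.0533. It was 0.0501, 0.068 and 0.0554 without pMN replicate 2, iNkx2.2 replicate 1 or iNkx2.2 replicate 2. Dbx2, a homeodomain factor of intermediate domains, was barely detected, at 0.946, 2.61 and 1.69 CPM in pMN and 0.551, 0.448 and 0.755 CPM in iNkx2.2. Its call was borderline, with a change of -1.57 on the log2 scale (SE 0.43, edgeR adjusted p = 0.0498), and held in 7 of 17 alternatives. Dbx1, its relative in the p0 domain, was at 2.73, 21.2 and 6.35 CPM in pMN and at 1.65, 4.39 and 3.13 CPM in iNkx2.2. These groups overlapped (edgeR adjusted p = 0.133, or 0.0348 with the replicate block), but each induced library was below the untreated one of its number. The pMN mean of Dbx1 was set by replicate 2, without which the log2 fold change was -0.60.

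Nkx6-2, a homeodomain repressor of the Nkx6 class, was at 33.1, 31.2 and 19.5 CPM in pMN and at 22.0, 17.9 and 15.1 CPM in iNkx2.2. The groups overlapped and the log2 fold change was -0.60 (SE 0.21, edgeR adjusted p = 0.108, or 0.00387 with the replicate block). Each induced library was below the untreated one of its number. Foxa2, the forkhead factor of the floor plate, was at 59.6, 52.6 and 67.6 CPM in pMN and at 104, 90.9 and 102 CPM in iNkx2.2. It was the only one of the 8 with a positive log2 fold change, 0.72 (SE 0.20), and although the groups did not overlap it missed the threshold (edgeR adjusted p = 0.0523). It passed in 7 of 18 alternatives. Floor plate markers (Shh, Foxa1, Ntn1, Spon1, Ferd3l, Slit1) summed to 718 to 1021 CPM in iNkx2.2, above the pMN range, and none of the 6 was at 0. Their part in the Foxa2 level was not tested.

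**Figure D2:**
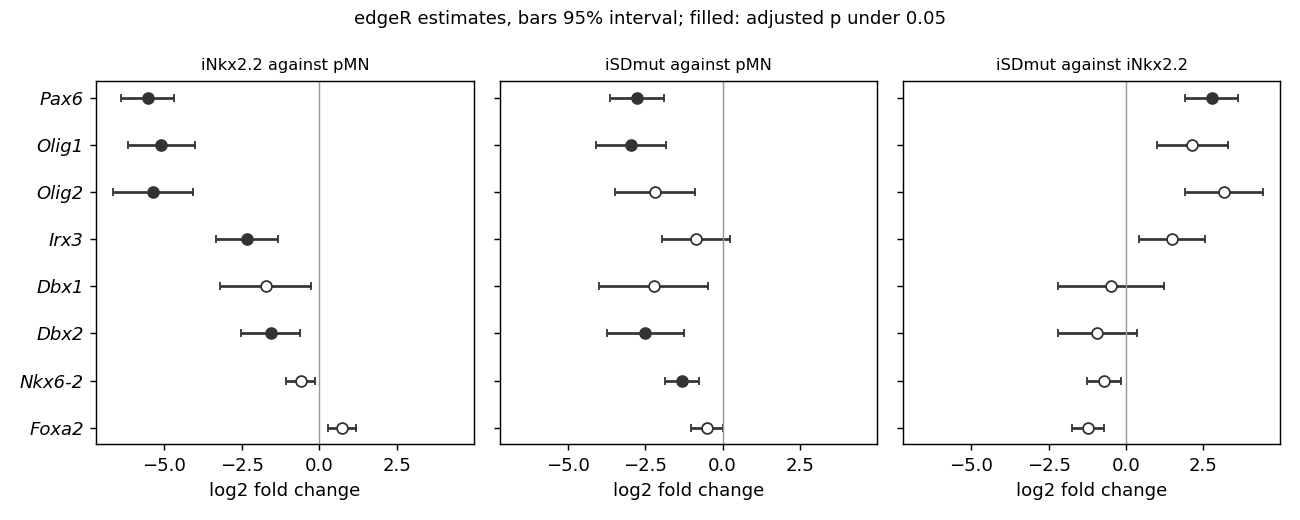
Log2 fold change of each factor with its 95% interval in the 3 progenitor comparisons, from edgeR; filled points have an adjusted p under 0.05. The first 4 factors are below 0 in both comparisons with pMN and above 0 where iSDmut is set against iNkx2.2.

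With the SD-mutant protein, Pax6, Olig1, Dbx2 and Nkx6-2 were called lower than in pMN, 4 of the 8 factors, and none was called higher. The share over all genes was 1.64% lower and 1.9% higher. The median log2 fold change was -2.20 over the 8 factors and -0.01 over all genes, and 6 of the 8 factors had groups that did not overlap, against 36.4% of all genes. This comparison and the preceding one share the pMN libraries.

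The 2 iSDmut libraries differed from each other in the strongly affected factors. Pax6 was at 25.1 and 9.77 CPM in replicates 1 and 2, and the log2 fold change against pMN was -2.77 (SE 0.39, edgeR adjusted p = 0.00722). Olig1 was at 7.06 and 2.87 CPM (log2 fold change -2.96, SE 0.50, edgeR adjusted p = 0.0157). Where an iSDmut library is left out, or lane 2 is taken alone, that group is a single library assumed to vary like the other groups. The Olig1 p was 0.0625 without iSDmut replicate 2 and 0.0637 without pMN replicate 1. Olig2 was at 87.1 and 25.6 CPM, both below all pMN libraries, yet the change of -2.18 (SE 0.57) was not called (edgeR adjusted p = 0.0741). With 1 library left out, the Olig2 change ranged from -3.31 to -1.54. Irx3 was at 21.5 and 6.03 CPM, the first inside the pMN range and the second below it. The change was -0.86 (SE 0.49) and was not called (edgeR adjusted p = 0.361). This value was -2.04 without replicate 1 and -0.21 without replicate 2.

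Replicate 1 thus held 2.57, 2.46, 3.40 and 3.57 times the Pax6, Olig1, Olig2 and Irx3 level of replicate 2, while Nkx2-2 itself differed by a ratio of 1.01. Of all genes tested, 5.89% differed by more than 1 on the log2 scale between these libraries. Foxa2 and the Dbx genes went the other way, with ratios of 0.53, 0.62 and 0.60 (Foxa2, Dbx1, Dbx2). The labels place replicate 1 on lane 2 and replicate 2 on lane 3, so replicate and lane cannot be told apart.

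Of the remaining factors, Dbx1, Dbx2 and Nkx6-2 were below every pMN library in iSDmut. Dbx1 was at 1.62 and 2.62 CPM, both below the pMN range, and its change of -2.23 (SE 0.79) was not called (edgeR adjusted p = 0.155). Dbx2 was at 0.224 and 0.374 CPM and was called (change of -2.49, SE 0.56, edgeR adjusted p = 0.0439), but in 6 of 17 alternatives. Nkx6-2 was at 11.54 and 10.97 CPM, below every pMN library, and fell by 1.31 on the log2 scale (SE 0.25, edgeR adjusted p = 0.0247). Leaving out either iSDmut library took that p to 0.0919 or 0.102, and leaving out pMN replicate 1 or 2 took it to 0.0837 or 0.0675. Foxa2 was at 29.2 and 55.1 CPM, overlapping pMN (change of -0.50, SE 0.23, edgeR adjusted p = 0.254). Its change ranged from -1.04 to -0.12 with 1 library left out.

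**Figure D3:**
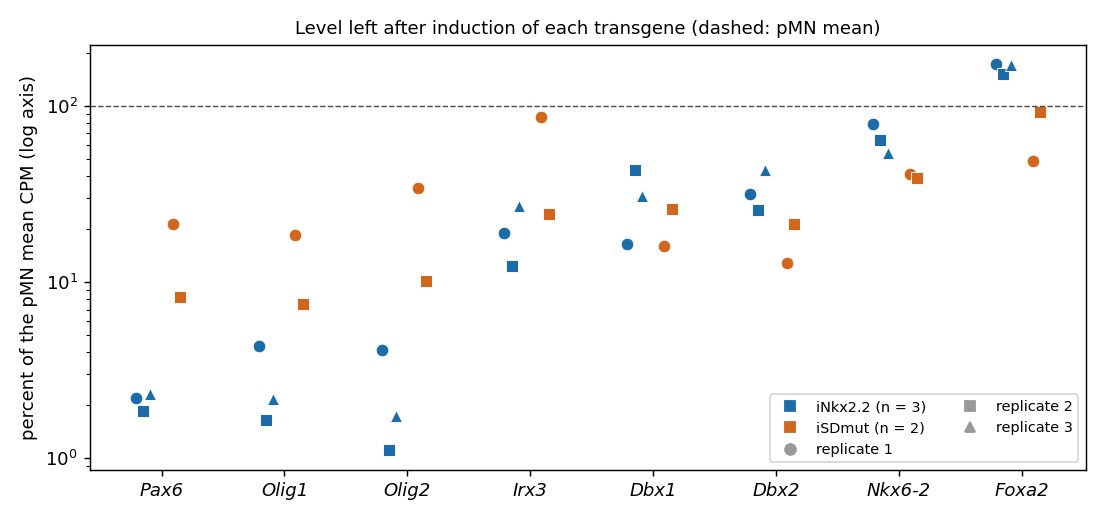
Level of each factor in the induced libraries as a percent of its pMN mean, on a log axis, with the dashed line at the pMN mean. Pax6 was left at 1.86% to 2.33% in iNkx2.2 and at 21.3% and 8.27% in iSDmut.

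The direct comparison of the mutant with the wildtype protein asks whether the SD changes these responses, although the mutation and the line cannot be told apart in it. Pax6 was called higher with the mutant protein, 1 of the 8 factors, against 0.16% of all genes called higher and 0.121% lower. In either direction, 6 of the 8 had groups that did not overlap, against 31.9% of all genes. The Pax6 difference was 2.77 on the log2 scale (SE 0.38, edgeR adjusted p = 0.0304), or 6.81-fold, with both iSDmut libraries above all 3 iNkx2.2 libraries. The call was made in 8 of 18 alternatives, with adjusted p between 1.23e-11 and 0.147. It was lost without any one of pMN replicate 1 or 3, the 3 iNkx2.2 replicates (0.119 to 0.147) or iSDmut replicate 1 (log2 difference 1.94, edgeR adjusted p = 0.122). Within lane 2, where replicate 1 is the single iSDmut library, the difference was 3.36 (edgeR adjusted p = 0.0258).

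Olig2 and Olig1 were also higher in both iSDmut libraries than in any iNkx2.2 library, by 3.18 (SE 0.56, 95% interval 1.92 to 4.44) and 2.14 (SE 0.51, interval 0.99 to 3.28) on the log2 scale. Neither passed over all genes (edgeR adjusted p = 0.0666 and 0.131). For Irx3 the groups overlapped and the difference was 1.49 (interval 0.41 to 2.56, edgeR adjusted p = 0.246). With 1 library left out, the differences ranged from 2.05 to 3.94 for Olig2, 1.36 to 2.72 for Olig1 and 0.31 to 2.14 for Irx3. Foxa2 was lower with the mutant protein by 1.23 (interval 0.71 to 1.75, edgeR adjusted p = 0.0804). Its log2 difference ranged from -1.76 to -0.84 with 1 library left out. Floor plate markers summed to 397 to 601 CPM in iSDmut, below the iNkx2.2 range, with 1 of the 6 called lower in this comparison, and their part was not tested. For Nkx6-2 the difference was -0.71 (interval -1.25 to -0.16, edgeR adjusted p = 0.272). In the authors' deposited table, Pax6, Olig1 and Olig2 are called lower than pMN with either protein and Irx3 with the wildtype protein. The authors' deposited table also calls Foxa2 higher with the wildtype protein (log2 fold change 0.76). For wildtype minus mutant, the authors' deposited table gives Pax6 a log2 fold change of -2.75 that it does not call, and Foxa2 one of 1.18 that it calls. The intervals for Dbx1 (-2.21 to 1.23) and Dbx2 (-2.20 to 0.35) covered 0.

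Other genes of the same patterning system were counted from lists. Of the 7 tested intermediate progenitor factors that are reported here, 5 fell after wildtype induction: Irx5, the Iroquois neighbour of Irx3, by a log2 fold change of -2.40, Sp8 by -3.09, Prdm12 by -2.98, Prdm8 by -3.71 and Foxn4 by -1.18. With the mutant protein none of these 7 was called, and none was called between the proteins. Of 6 other ventral factors reported here, Nkx2-9, a close relative of Nkx2-2, fell with both proteins (-4.91 and -2.90), and Sim1, a marker of V3 neurons, rose with the wildtype protein (2.24). Of 7 tested dorsal factors 2 fell with the wildtype protein, Zic2 and Zic5 (both -1.10), and none with the mutant. Of 6 pan-neural genes, 2 fell with the wildtype protein (Sox2 -0.52 and Sox3 -1.30) and 1 with the mutant (Sox2 -0.49). Of 5 tested motor neuron genes, 4 fell with the wildtype protein (Lhx3 -4.85, Chat -2.80, Isl2 -2.67, Mnx1 -2.24) and 1 with the mutant (Mnx1 -2.45), and none was called between the proteins. Neuron markers summed to 397 to 780 CPM in pMN, 889 to 1263 CPM in iNkx2.2 and 894 to 1101 CPM in iSDmut. Of these 6 genes, 2 were called higher in iNkx2.2 than in pMN and 0 in either iSDmut comparison. Definitive endoderm markers summed to 57.6 to 111, 50.8 to 106 and 15.8 to 43.9 CPM in the same groups. Of 6 tested, 1 was called lower in iNkx2.2 than in pMN and 0 in either iSDmut comparison. Their part in the factors' levels was not tested.

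Across the 8 progenitor libraries, log2 levels of Pax6, Olig1, Olig2 and Irx3 were correlated with each other at Pearson's r of 0.886 to 0.984. As these libraries fall into 3 groups, the values describe mostly the group differences. The genes whose pattern was most like that of Pax6 were Sema3c, Neurog2 and Foxb1 (r = 0.992, 0.989 and 0.985), among 725 genes with an SD of log2 CPM of at least 1. Neurog2, a proneural bHLH factor, was also the closest to Olig2 (r = 0.994). For Olig1 they were Lhx4, Lhx3 and Nkx2-9 (0.993, 0.992 and 0.989), and for Irx3 Irx5 came first (0.976). Dbx1 and Dbx2 were closest to Usp26 (0.929) and Aldh1a1 (0.96), and Nkx6-2 and Foxa2 to Spn (0.883) and Dbh (0.974). These partners were at low levels. The highest values of Usp26, Aldh1a1 and Spn were 5.64, 2.00 and 0.91 CPM, each in pMN replicate 2. For Dbh the highest was 2.63 CPM.

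Pax6 is also a regulator of pancreatic endocrine cells, and its level was followed in both pancreas sets. In E15.5 pancreas it was at 47.9, 33.9 and 24.1 CPM in controls and at 20.4, 19.6, 28.3 and 30.2 CPM in SDmut. The groups overlapped and the log2 fold change was -0.52 (SE 0.26, 95% interval -1.12 to 0.08, edgeR adjusted p = 1). Only 0.00534% of all 18723 genes were called in that comparison. The lowest Pax6 library of each group, control replicate 3 and SDmut replicate 2, also held muscle markers, which summed to 3970 and 3741 CPM. Over 13 alternatives, among them a fit without these libraries, the Pax6 change ranged from -0.73 to -0.24 and was never called. Beta cell markers summed to 293 to 827 CPM in controls and 56.4 to 109 CPM in SDmut, and the endocrine list to 442 to 850 and 292 to 433 CPM. Their part in the Pax6 level was not tested.

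In 8-week islets Pax6 was at 270.4 and 262.9 CPM in controls and at 310.8, 276.9 and 263.5 CPM in betaSDmut (log2 fold change 0.08, SE 0.09, interval -0.14 to 0.31, edgeR adjusted p = 0.613). Of all genes, 7.94% were called there. In 4-week islets it was at 264.0 and 248.8 CPM in controls and at 284.9 and 247.5 CPM in those labelled betaKO. The change was 0.05 on the log2 scale (SE 0.10, interval -0.20 to 0.30, edgeR adjusted p = 0.853), and 1.56% of all genes were called. Nkx2-2 was not called lower in these libraries either, with a change of -0.18 on the log2 scale (edgeR adjusted p = 0.779). The 2 effects on Pax6 differed by 0.04 (SE 0.14, edgeR adjusted p = 0.95), with 1.21% of all genes called for that difference. The sign of the betaKO effect depended on the scale: mean deposited FPKM was 138 in 4-week controls and 125 in betaKO. In FPKM these libraries did not overlap, at 143 and 133 in 4-week controls and 128 and 122 in betaKO. Nor did they at 8 weeks, at 132 and 128 FPKM in controls and 149, 137 and 133 FPKM in betaSDmut.

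**Figure D4:**
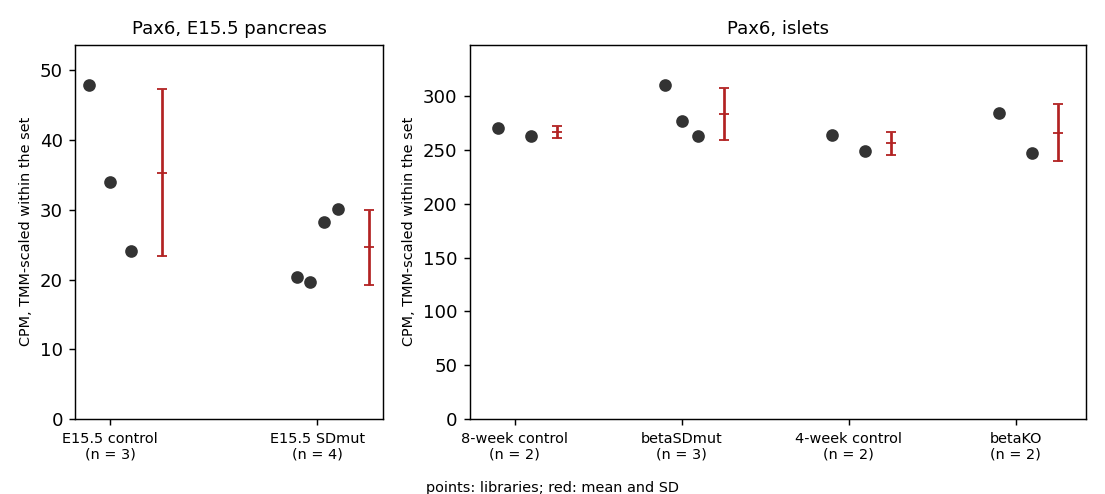
Pax6 level in every embryonic pancreas library (left) and islet library (right), in CPM scaled within each set, on axes that start at 0; red marks give the mean and SD. On this CPM scale, control and mutant libraries overlap in all 3 age-matched pairs.

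Of the other factors, Foxa2, which is also an endoderm factor, was at 50.4 to 89.6 CPM in embryonic pancreas and 61.1 to 81.1 CPM in islets. Nkx6-2 was at 17.3, 20.1 and 16.1 CPM in E15.5 controls and at 25.2, 19.1, 65.1 and 58.9 CPM in SDmut, so that 3 of the 4 mutant libraries were above every control (log2 fold change 1.24, SE 0.44, edgeR adjusted p = 1). In islets it had 0 to 9 counts per library. Irx3 was at 0.711 to 2.18 CPM in embryonic pancreas and had 3 to 24 counts per islet library. Olig2 had 0 counts in every embryonic pancreas library and at most 4 in islets, and Dbx2 had at most 6 counts in any pancreas or islet library. Olig1 had 17 and 19 counts in the 8-week controls and 1, 0 and 0 in betaSDmut. It was singled out after its values were seen, and passed over all genes (edgeR adjusted p = 0.0152), but at counts this low the fold change is not given. Dbx1 had 0 counts in every islet library. In embryonic pancreas it had 84 counts in control replicate 3, 190 in SDmut replicate 2 and 0 elsewhere. In those libraries 5 muscle markers summed to 3970 and 3741 CPM, against 5.43 to 30.8 CPM in the other 5. Pan-neural markers were highest there too, at 322 and 258 CPM against 53.5 to 111 CPM. So were dorsal progenitor factors, at 21.2 and 14.1 CPM against 2.61 to 3.78 CPM. The part of these lists in the Dbx1 level was not tested.

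The ChIP-seq sites come from MIN6 cells, not progenitors, and only 1 coordinate per site is deposited. Nkx2.2 final sites numbered 6473, and 4 of the 8 factors had one within 100 kb of a start, against 41.1% of protein-coding genes. Pax6 (GRCm38 chr2:105668896-105698410, plus strand) had 3, all downstream of the gene and in introns of its neighbour Elp4, at 37.6, 56.6 and 66.9 kb from the nearest Pax6 start. Their mean log2 CPM, the authors' value over 2 replicates, was 6.47, 7.24 and 7.53, against a median of 6.82 over final sites. The last is the site that the authors' deposited table joins to Pax6. The reference sequence of 101 bases centred on each Pax6 site and on the site nearest to Foxa2 is shown, as Pax6 is the factor followed in both tissues and the Foxa2 site is the one closest to a start of any of the 8. It is the plus strand of GRCm38, and capitals mark AAGTG or its complement CACTT, the core letters bound by Nkx2 homeodomains.
Pax6 site at chr2:105720013-105720113: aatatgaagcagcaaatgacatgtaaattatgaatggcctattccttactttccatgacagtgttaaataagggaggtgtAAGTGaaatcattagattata
Pax6 site at chr2:105739020-105739120: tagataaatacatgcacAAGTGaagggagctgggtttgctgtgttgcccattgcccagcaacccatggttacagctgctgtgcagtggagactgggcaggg
Pax6 site at chr2:105749303-105749403: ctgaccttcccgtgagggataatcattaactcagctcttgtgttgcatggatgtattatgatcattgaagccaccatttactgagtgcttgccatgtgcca
Foxa2 site at chr2:148048459-148048559: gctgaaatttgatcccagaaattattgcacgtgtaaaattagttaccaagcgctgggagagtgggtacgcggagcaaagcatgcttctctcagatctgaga

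The first pair of Pax6 windows holds AAGTG once each, and the other 2 windows printed do not hold it on either strand. Over all final sites, 22.7% of such windows hold AAGTG on either strand, and 21.8% of windows of the same length placed 1000 bp downstream. For the longer TNAAGTG, which contains AAGTG, the shares were 7.79% and 5.62%. The site nearest to Foxa2 lay 1.5 kb upstream of a start, outside any RefSeq gene, at a mean log2 CPM of 6.27. It is 1 of 3 within 100 kb of Foxa2, and the authors' deposited table joins Foxa2 to another of them, at a mean log2 CPM of 7.65. The nearest site to Nkx6-2 was 26.4 kb downstream in an intron of Inpp5a, and that to Irx3 was 87.6 kb downstream in a lncRNA intron. For Dbx1, Olig1, Dbx2 and Olig2 the nearest final sites were 121.2, 195.3, 209.2 and 239.5 kb from a start, the same site serving both Olig genes. Antisense transcripts overlap Pax6 and Irx3 in the annotation. As the sources used here do not state that counting used strand, reads from either partner cannot be told apart.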

How the data were processed

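The deposited values used here are raw read counts per gene, and FPKM per gene for the progenitors and islets, both made by the authors. STAR, Cufflinks, DESeq2, edgeR and limma and the mm10 build (GRCm38) are named without roles in the submitters' processing notes, and the strand used in counting is not given in the sources used here. The ChIP-seq tables hold the authors' event counts and, for final sites, log2 CPM per replicate. The authors' deposited comparison tables hold log2 fold changes, p-values and a call score of lower, not called or higher. Signal in the ChIP input was not used.

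The 8 genes, the gene lists and the tests were chosen with earlier results of these data known. The tests on counts used edgeR 4.0.16 (R 4.3.3) with filterByExpr by group (minimum count 10, minimum total 15), TMM factors, a robust quasi-likelihood fit and Benjamini-Hochberg adjustment over all genes tested, with a threshold of 0.05. The 3 progenitor groups shared 1 model, and each pancreas or islet comparison had its own. SE is the log2 fold change over the square root of F. The function was tested on simulated data. Alternatives used DESeq2 1.42.0, limma 3.58.1 on log2(FPKM + 1), other scalings, filters, a lane term, a replicate block and each library left out. Same-numbered pMN and iNkx2.2 libraries deviated together (r = 0.535, 0.513 and 0.568), so their numbers were taken to pair them. The iSDmut group has 2 pairs only, and islet numbers did not pair. Named were all 8 genes, list genes called in a progenitor comparison, the 3 genes most correlated with a member, the nearest final site of each member and all within 100 kb of Pax6. Starts, promoters and the genome are from RefSeq (GRCm38.p6). Some list genes are not reported here, called ones included, and the counts and sums of their lists leave them out. Of the 8 genes, 7 had an entry among 32851 promoters.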

Additional observations from a re-analysis of the deposited data

Results flagged for a closer look

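Pax6 differed between the effects of the 2 proteins in progenitors: the log2 fold change against pMN was 2.77 less negative with the SD-mutant protein than with the wildtype protein (edgeR adjusted p = 0.0304, both iSDmut libraries above all 3 iNkx2.2 libraries). The call was lost in 10 of 18 alternatives, the replicate block among them (edgeR adjusted p = 0.145), and mutation and line cannot be told apart. Nkx2-2 was 0.53 lower on the log2 scale in the same comparison, and its part in the difference was not tested.

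Dbx1 in embryonic SDmut pancreas was at 4.50 CPM in replicate 2 and at 0 in the other 3 libraries. With the other 3 tied at 0, any level in the fourth would stand apart in this way, so the gap has no error rate. Muscle markers summed to 3741 CPM in that library and to at most 30.8 CPM in the others of the group. Pan-neural markers summed to 258 CPM there and at most 111 CPM in the others, and dorsal progenitor factors to 14.1 and at most 3.56 CPM. The part of these lists in the Dbx1 level was not tested.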

How the results depend on the processing

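No log2 fold change of the 8 factors in progenitors changed direction under any of its 17 or 18 alternatives, and Pax6, Olig1 and Olig2 were called lower in iNkx2.2 than in pMN in all 18. The number of factors called in that comparison was 5, and 3 to 5 with 1 library left out. For iSDmut against pMN it was 4, and 2 without the filter, 2 within lane 2, and 2 to 3 with 1 library left out. For iSDmut against iNkx2.2 it was 1, and 0 without the filter, 0 in a fit of only these groups, 0 with limma on FPKM, 5 with DESeq2, 5 with the lane term, 4 within lane 2, 2 with the replicate block and 0 to 5 with 1 library left out. Over all genes, this last comparison had 44 calls of 15653 in the main fit and 145 of 25473 without the filter. It had 13 of 15466 in the fit of only these groups and 5 of 12836 with limma on FPKM. Calls were 473 of 15045 with DESeq2, 1023 of 15653 with the lane term and 528 of 15653 with the replicate block. The cause was not tested.

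With the replicate block, the 2 comparisons of iSDmut called 6 and 2 factors, where the pairing was not established. Over all 15653 genes they called 2626 and 528, against 554 and 44 without the block. Olig2 and Dbx1 were gained against pMN (edgeR adjusted p = 0.031 and 0.0414). Against iNkx2.2, Olig1 and Nkx6-2 were gained (edgeR adjusted p = 0.00244 and 0.0093) and Pax6 was lost (0.145). The embryos were blocked by a number in their titles that control and SDmut embryos share in part and whose meaning the labels do not give. For Pax6 the blocked log2 fold changes were -0.62 in embryonic pancreas, 0.12 in betaSDmut and 0.05 in betaKO, none called.

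The Pax6 effect in betaKO, 0.05, was -0.033 with total counts only, and -0.050 to 0.15 with 1 library left out (-0.050 without betaKO replicate 1). The difference of the islet effects, 0.04, was -0.04 without betaSDmut replicate 1, -0.01 without 4-week control replicate 1 and -0.062 without betaKO replicate 2, over a range of -0.062 to 0.14. None of these passed the threshold.

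Over all genes, the number called for iNkx2.2 against pMN was 1486 (412 to 4629 over the alternatives, the highest with the replicate block), for iSDmut against pMN 554 (151 to 2626, the highest with the block) and for iSDmut against iNkx2.2 44 (1 to 1023). For the pancreas it was 1 at E15.5 (0 to 25), 1224 in betaSDmut (37 to 2765), 233 in betaKO (4 to 770) and 194 for the islet difference (0 to 653). The share of protein-coding genes with a final site was 25.4% within 50 kb and 59.9% within 200 kb. Depth limits Dbx2 most, with 4 to 43 counts per progenitor library.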
